A study of Mus musculus with 4 samples.

Results

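The G2 and mitosis genes described here are 37 genes that cells switch on to enter and complete division, among 20886 genes with a symbol on the array. They were taken by name: a probe belonged to a gene when its RefSeq transcript mapped to the gene's symbol, and the brightest probe stood for the gene. All 37 were among the 13033 genes that were well above background, by the scanner software's call, on at least 2 of the 4 arrays, and 36 of them were so on all 4 arrays. Cenpf missed this on the array of wild-type transplanted cells.

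Expression was measured in LSK cells, the lineage-negative, Sca-1-positive and c-Kit-positive marrow cells that include the blood stem cells and early progenitors. There were 4 groups with 1 single-colour array each, all labelled C57BL/6: native cells of wild-type mice and of Sf3b1+/- mice at 20 weeks of age, and CD45.2+ cells of wild-type or Sf3b1+/- donors recovered 9 months after transfer of whole marrow into lethally irradiated CD45.1+ hosts. Sf3b1+/- mice are heterozygous for a null allele of the splicing factor gene Sf3b1, and the labels name no Cre or promoter. The labels mention 4 mice for the native harvest and 5 recipients for the transplanted harvest, but do not say how many were pooled on an array, nor the age of the marrow donors or the strain of the hosts. Slide position also differed between the 4 arrays and cannot be told apart from the group. Transplanted and native cells therefore differed in host, irradiation and time elapsed as well as in transplantation, and these cannot be told apart.

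Entry into mitosis is driven by the kinase Cdk1 with its A- and B-type cyclins. Kinetochores then join chromosomes to spindle microtubules, a checkpoint holds the cell until all are attached, and the anaphase-promoting complex (APC/C), a ubiquitin ligase, destroys the cyclins so that the cell can exit and divide. Most of these genes are transcribed late in the cell cycle under shared control, so their RNA in a bulk sample depends on how many cells are dividing, and most blood stem cells in adult marrow are quiescent. In bulk RNA, fewer cells in G2 or mitosis and less RNA per such cell cannot be told apart.

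A level is the log2 processed signal minus the 75th percentile of the array's probes that were well above background on all 4 arrays, so that 0 is the signal of a fairly bright probe. A gene's 4 levels are given with the native arrays first (wild-type, then Sf3b1+/-) and the transplanted arrays after them in that order of genotype. Levels compare a gene between arrays and not a gene with another gene. With 1 array per group no difference between 2 arrays has a replicate check, and the number of arrays limits the precision. Spots printed in replicate differed by an SD of 0.107 to 0.138 (root mean square over probes within an array), which makes 0.20 on the log2 scale the technical SD of a difference between 2 single spots. This technical SD was measured within arrays and leaves out variation between arrays, so a difference above it may still be technical. A difference counts below when it reached 1.5-fold. Between 47.7% and 51.5% of spots were well above background, no spot was saturated, and Sf3b1 itself stood at -2.19, -2.60, -2.87 and -2.98; the labels do not say whether its probe lies in the deleted part. All 10 LSK markers fixed for the check, Kit, Ly6a and Cd34 among them, were well above background on every array.

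On the percentile scale the G2 and mitosis genes differed more between native and transplanted cells than between genotypes, by the members' medians. With spike-in scaling this order turned, with medians of 0.40 and 0.65 for genotype. The submitters transplanted the marrow to separate the cells' own genotype from the surroundings they live in; the contrast of settings itself follows from the 4 groups. In wild type 34 of the 37 genes were lower in transplanted than in native cells, with a median difference of -0.51 (-0.01 when scaled to spike-in RNAs), while the median of all genes compared was 0.00 and 50.1% of them were above 0. In Sf3b1+/- cells 33 of the 37 were lower, with a median of -0.46 (0.29 when scaled to spike-in RNAs) against 0.01 over all genes, of which 50.8% were above 0. At least 1.5-fold lower were 15 of the 37 in wild type, where 5.74% of all genes were, and 15 of the 37 in Sf3b1+/-, where 7.01% were. No member was at least 1.5-fold higher in either genotype, against 7.95% and 11.4% of all genes. The wild-type and Sf3b1+/- comparisons rest on different arrays: 32 of the 37 were below 0 in both (36.0% of all genes), and in both a difference of at least 1.5-fold downward was seen for 11 (2.45% of all genes).

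**Figure D1:**
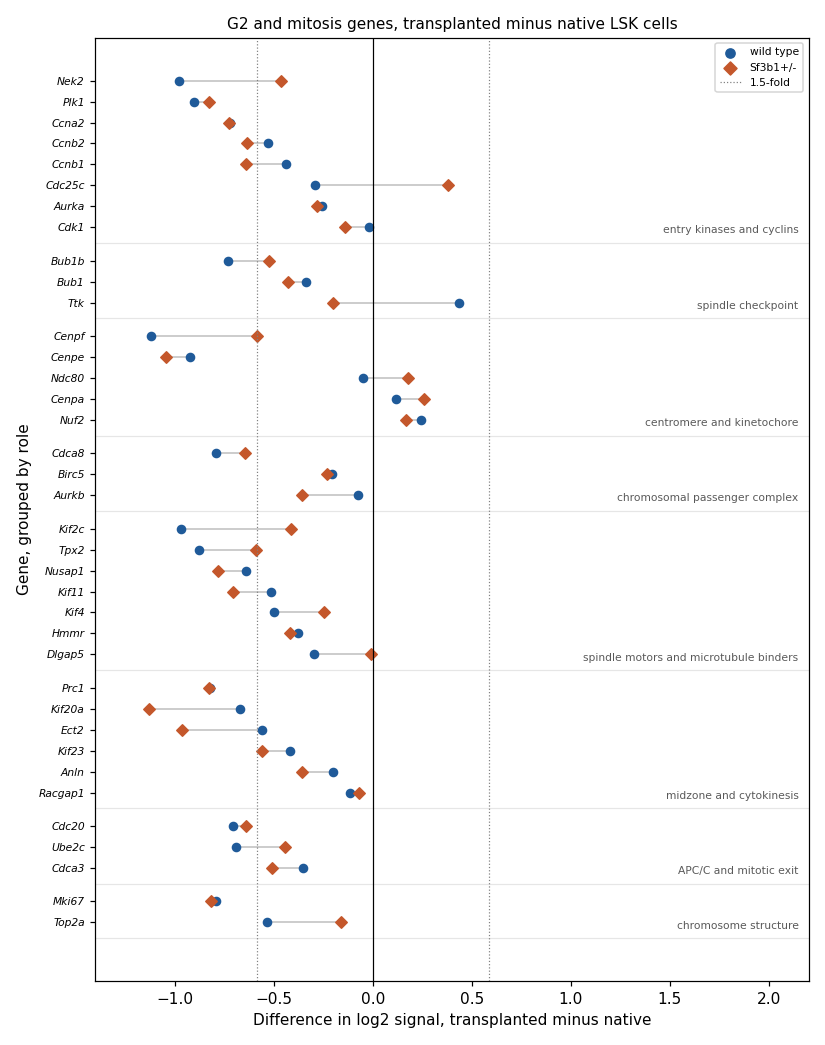
Difference in log2 signal between transplanted and native LSK cells for each of the 37 genes, grouped by role, in wild type (circles) and Sf3b1+/- (diamonds), 1 array per group. Most points lie left of 0, with 15 genes past the 1.5-fold line in each genotype, while Cenpa and Nuf2 lie to the right of 0 in both; with spike-in scaling 18 genes would lie to the right in wild type and 30 in Sf3b1+/-.

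These differences are relative to the bulk of genes on each array. When the arrays were scaled instead to the E1A spike-in RNAs added to 20 ng of total RNA, the median of all genes compared was 0.50 higher in transplanted than native wild-type cells and 0.76 higher in Sf3b1+/- cells. The members' medians on that scale were -0.01 and 0.29. Since both scalings shift a whole array, the members stood 0.52 and 0.47 below the median of all genes under either of them. With spike-in scaling 19 of the 37 members were below 0 in wild type and 7 in Sf3b1+/-, where Ccna2, Ccnb1, Ccnb2, Cenpf, Cdca8, Kif11, Tpx2 and Cdc20, all at least 1.5-fold lower on the percentile scale, stood between 0.025 and 0.16. Directions given below are on the percentile scale, relative to the bulk of genes.

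Genotype and setting were also fitted together across all genes with limma, an additive model that leaves 1 residual degree of freedom per gene. That residual is how far a gene's setting difference departs between the genotypes, since no group has replicate arrays. The SEs and p-values rest on it. After Benjamini-Hochberg adjustment over the 13033 genes no member passed 0.05 for setting, where 0.422% of all genes passed as higher and 0.153% as lower. The lowest adjusted p among members was 0.0760 (Cenpe). At an unadjusted p under 0.05 there were 23 of the 37 members, all lower in transplanted cells, against 12.2% of all genes lower and 13.6% higher. The count depended on the processing: after normexp background correction 20 members passed the adjusted threshold as lower (10.8% of all genes passed in either direction), over genes well above background on all 4 arrays 3 did (2.14%), and with spike-in scaling 7 passed as higher (61.1%).

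Among the kinases and cyclins of mitotic entry, 7 of 8 were lower in transplanted cells in both genotypes. Plk1, the Polo-like kinase needed from centrosome maturation to cytokinesis, had levels of 1.45, 1.86, 0.54 and 1.04. Both native arrays were above both transplanted arrays, by 1.87-fold in wild type and 1.77-fold in Sf3b1+/-, and the limma estimate for setting was -0.87 (SE 0.12, adjusted p = 0.0855). Ccna2, the cyclin of S and G2 phase, stood at 1.23, 1.48, 0.51 and 0.75, again with no overlap between settings and 1.65-fold lower in both genotypes.

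The B-type cyclins, the partners of Cdk1 in mitosis, were lower by smaller amounts. Ccnb1 stood at 1.19, 1.30, 0.76 and 0.67, and Ccnb2 at 2.27, 2.26, 1.74 and 1.63. Both were past 1.5-fold in Sf3b1+/- cells alone (1.56-fold and 1.55-fold, against 1.35-fold and 1.44-fold in wild type), a contrast between genotypes that was not tested. Averaged over its 3 detected probes, Ccnb1 differed by -0.11 in Sf3b1+/- cells. Nek2, a centrosome kinase, stood at -2.72, -2.73, -3.70 and -3.19; it was 1.97-fold lower in wild-type and 1.38-fold lower in Sf3b1+/- transplanted cells. Aurka, which matures centrosomes and builds spindle poles, was lower by 0.26 and 0.28 on the log2 scale, somewhat more than the technical SD. Cdk1 itself barely differed, at -0.17, -0.09, -0.19 and -0.23. Cdc25c, the phosphatase that activates Cdk1, was the exception of this group, with differences of -0.29 in wild type and 0.38 in Sf3b1+/-.

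Spindle checkpoint genes went different ways. Bub1b, which encodes the checkpoint inhibitor BubR1, stood at -1.32, -0.97, -2.05 and -1.495 and was 1.66-fold and 1.44-fold lower in transplanted cells. Bub1, a checkpoint kinase, was read by 10 spots per array (9 after an outlier was removed on the wild-type transplanted array), whose SD was 0.068 to 0.079. Its levels of -0.89, -0.92, -1.22 and -1.34 separated native from transplanted cells by more than that spot SD. Ttk, the kinase that starts checkpoint signalling, had weak signals of 43.1, 82.7, 64.3 and 99.7 units before scaling and levels of -5.26, -4.55, -4.83 and -4.75; its setting differences were 0.43 in wild type and -0.20 in Sf3b1+/-.

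Centromere and kinetochore genes held some of the largest differences and also members that did not follow the rest. Cenpe, the kinesin that carries chromosomes to the spindle equator, stood at 1.49, 1.61, 0.56 and 0.57. It was 1.89-fold lower in wild-type and 2.06-fold lower in Sf3b1+/- transplanted cells (limma estimate -0.98, SE 0.13, adjusted p = 0.0760). Cenpf, a large kinetochore protein, had a probe close to background: its levels of -5.42, -5.21 and -5.79 came from 38.7, 52.5 and 48.4 units, and on the wild-type transplanted array it was not well above background (19.6 units). Set against that undetected signal, it was 2.18-fold lower in wild-type transplanted cells, a ratio that is not a lower bound. In Sf3b1+/- transplanted cells it was 1.502-fold lower. After normexp correction these differences were -0.35 and -0.48.

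Cenpa, the histone variant that marks centromeres, was slightly higher in transplanted cells (0.12 and 0.26), at levels of 0.24, 0.02, 0.36 and 0.28. Nuf2 (-1.97, -1.78, -1.73 and -1.61) also was, by 0.24 and 0.17. Ndc80, whose protein forms with Nuf2 the rod that grips microtubule ends, differed by -0.05 and 0.18, within the technical SD. In the chromosomal passenger complex, which corrects faulty attachments, Cdca8 (borealin) stood at 2.81, 2.92, 2.03 and 2.27 and was 1.73-fold and 1.57-fold lower. Its second probe differed by -0.48 in wild type and by 0.00 in Sf3b1+/-. Birc5 (survivin) differed by -0.20 and -0.23. The probe of the kinase gene Aurkb gave nearly the same signal before scaling on every array, 44.1, 43.7, 46.2 and 47.1 units. Its differences of -0.08 and -0.36 appeared with the scaling. The same held for other members between the native and transplanted Sf3b1+/- arrays, such as Nek2 (292 and 294 units before scaling).

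All 7 spindle motors and microtubule binders were lower in transplanted cells in both genotypes. Tpx2, the activator of Aurora A on the spindle, stood at -0.01, 0.17, -0.89 and -0.42, which is 1.84-fold and 1.51-fold lower. Nusap1, a microtubule bundler, stood at 0.67, 0.87, 0.03 and 0.09, 1.56-fold and 1.72-fold lower. For each of them both native arrays were above both transplanted arrays. Kif11, the motor that pushes spindle poles apart, stood at -1.42, -1.06, -1.94 and -1.77, and was 1.43-fold lower in wild type and 1.63-fold in Sf3b1+/-. Kif2c, a microtubule depolymerase, stood at -3.41, -3.43, -4.38 and -3.84, with the order turned: 1.95-fold in wild type and 1.33-fold in Sf3b1+/-. Kif4 (-0.50 and -0.25), Hmmr (-0.38 and -0.42) and Dlgap5 (-0.30 and -0.01) had the smaller differences of this group.

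The 6 genes of the spindle midzone and cytokinesis also were all below 0 in both genotypes. Prc1, which bundles the midzone microtubules, had levels of 1.66, 1.91, 0.84 and 1.08, 1.77-fold lower in wild type and 1.78-fold in Sf3b1+/-. Kif20a, a midzone kinesin, stood at 0.11, 0.56, -0.56 and -0.57; it was 1.59-fold lower in wild-type and 2.19-fold lower in Sf3b1+/- transplanted cells. Its highest value was on the Sf3b1+/- native array, and the transplanted arrays did not differ. Ect2, the exchange factor that switches on RhoA at the cleavage site, stood at 0.07, -0.02, -0.49 and -0.98, lower by 1.47-fold and 1.95-fold. Kif23 (-0.42 and -0.56), Anln, the scaffold anillin (-0.20 and -0.36), and Racgap1, the partner of Kif23 (-0.12 and -0.07), differed less.

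The remaining members act at mitotic exit or on chromosomes. Cdc20, the activator that points the APC/C at its mitotic targets, stood at 2.42, 2.54, 1.72 and 1.90, lower by 1.63-fold and 1.56-fold. Ube2c, the ubiquitin-conjugating enzyme of the APC/C, stood at 1.03, 1.23, 0.34 and 0.79, lower by 1.61-fold and 1.36-fold. Mki67, the gene of the proliferation marker Ki-67 that coats mitotic chromosomes, stood at 3.11, 3.27, 2.32 and 2.45. It was 1.73-fold and 1.76-fold lower, and its second probe gave differences of -0.63 and -0.63. Cdca3 differed by -0.35 and -0.51. Top2a, which untangles sister DNA, differed by -0.54 in wild type and -0.16 in Sf3b1+/-.

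**Figure D2:**
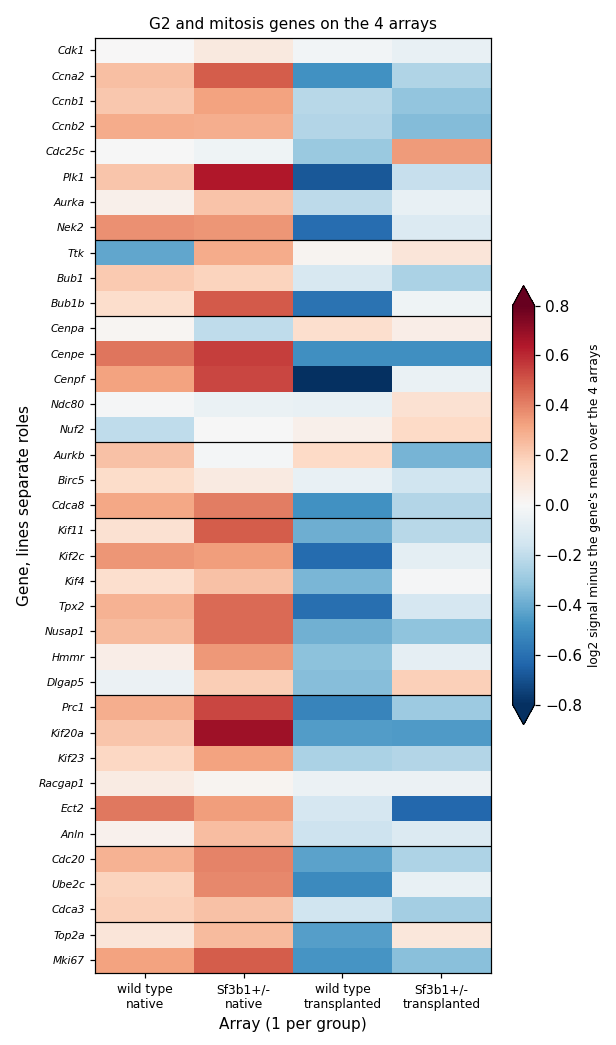
Level of each of the 37 genes on the 4 arrays, shown as log2 signal minus the gene's mean over the arrays, with black lines between roles. The native columns are mostly above the gene's mean (red) and the transplanted columns below it (blue) on the percentile scale, and the darkest blue cell is Cenpf in wild-type transplanted cells, where it was not well above background.

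Other genes of the cell cycle, taken as 3 lists, were set beside the members. Of 72 further mitosis genes 56 were lower in wild-type and 54 in Sf3b1+/- transplanted cells, with medians of -0.25 in both. Over all genes 50.1% and 50.8% were above 0. At least 1.5-fold lower were 11 (15.3%, against 5.74% of all genes) and 12 (16.7%, against 7.01%). In limma's setting test 0 of the 72 passed the adjusted threshold, and 25 had an unadjusted p under 0.05, all lower, against 12.2% of all genes lower. Lower by at least 1.5-fold in both genotypes were Sgo2a, which protects centromeric cohesin (-0.82 and -0.89), the phosphatase gene Cdc25b (-0.93 and -0.66), the kinase gene Melk (-0.63 and -0.80), Depdc1b (-0.65 and -0.64), Arhgap11a (-0.62 and -0.98) and Ckap5, a microtubule polymerase (-0.74 and -0.61). Among 34 S phase genes 18 were lower in wild type and 17 in Sf3b1+/-, with medians of -0.06 and 0.00, close to those of all genes. The replication genes Cdc45 (0.95 and 0.74), Gins2 (0.67 and 0.67) and Rfc3 (0.59 and 0.95) were at least 1.5-fold higher in both. The 19 regulators of mitotic transcription, which include Foxm1, Mybl2 and the MuvB subunits, had medians of -0.26 and -0.04, with none at least 1.5-fold apart the same way in both genotypes.

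Markers of other cell types also differed between settings. Of 6 B cell markers 4 and 5 were well above background on the wild-type and Sf3b1+/- native arrays and 1 on each transplanted array, with summed levels of 1.60, 1.05, 1.02 and 0.95 in the order above. Ebf1, a transcription factor of the B lineage, was well above background on both native arrays and on neither transplanted array, and Pax5 was not so on any array. Of 7 T and NK cell markers 6, 5, 6 and 5 were well above background, at summed levels of 3.27, 3.46, 3.35 and 3.32, with Cd8a on no array. Of the 5 measured myeloid markers 5, 4, 5 and 5 were, at 3.78, 3.66, 4.17 and 3.60. The summed levels of the B cell list were higher on both native arrays, while those of the T and NK cell and myeloid lists overlapped between settings. The sums follow the brightest genes: Klrb1c, an NK cell receptor, stood at -5.10, -5.47, -3.32 and -2.01, with both transplanted arrays above both native arrays. Of the 4 measured erythroid markers 3 were well above background on each array, and the list summed to -1.23, -1.04, -0.58 and -0.39, and all 5 megakaryocyte markers were detected on every array, summing to 3.57, 4.23, 3.84 and 4.65. In these lists Tfrc, the transferrin receptor (0.92 and 1.06), and the platelet chemokine gene Ppbp (-1.32 and -1.34) were past 1.5-fold the same way in both genotypes. The 10 LSK markers went different ways, with median setting differences of -0.49 in wild type, where 3 were above 0, and 0.03 in Sf3b1+/-, where 5 were. Past 1.5-fold in both genotypes were Slamf1 (1.32 and 2.57), a receptor of stem cells, Hlf (-0.75 and -1.02), a stem cell transcription factor, and Flt3 (-0.61 and -1.20), a receptor of multipotent progenitors; Mecom, another stem cell transcription factor, differed by -0.88 and -0.48. The part of these cell types in the members' differences was not tested.

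**Figure D3:**
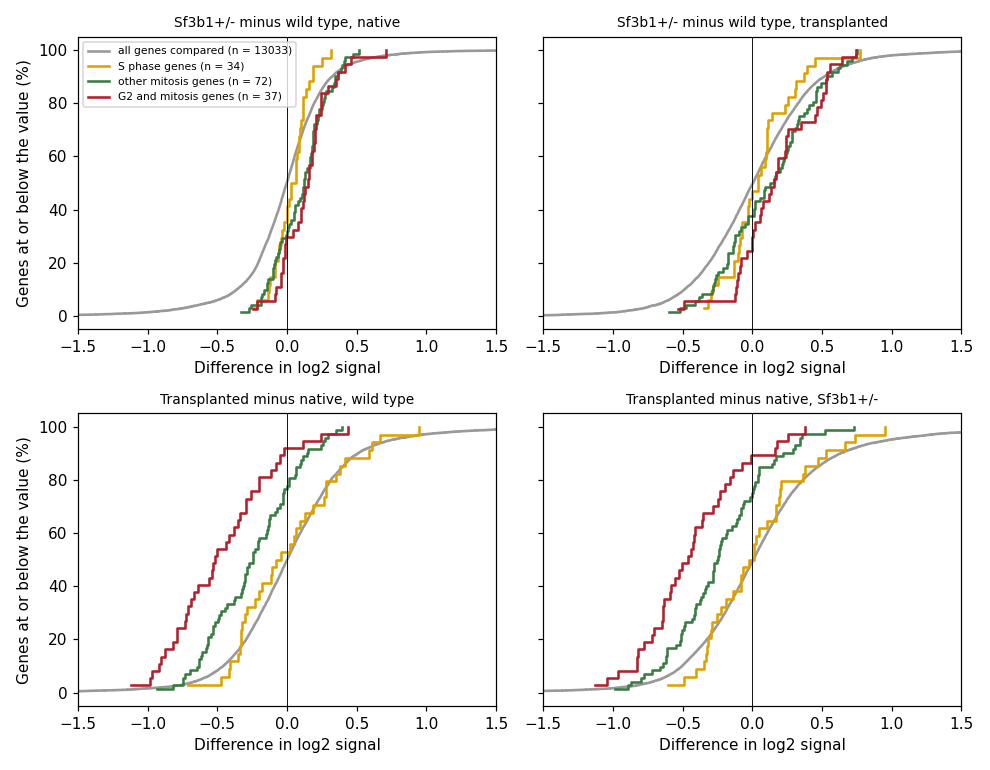
Share of genes at or below each log2 difference, in percent, for the G2 and mitosis genes (red), other mitosis genes (green), S phase genes (yellow) and all 13033 genes compared (grey), in the 4 comparisons between arrays. In the lower panels the red curve lies left of the grey, with the green between them and the yellow along the grey; in the upper panels red and green lie mostly to the right of the grey. A rescaling to spike-ins would move all curves of a panel by the same amount.

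Since most members differed in the same direction, their promoters were read from RefSeq (GRCm38.p6), which held an entry for 31 of the 37. The search covered 300 bases, from 250 before to 50 after the transcription start, for the cell cycle homology region (CHR, TTTGAA), the element bound by the DREAM and MuvB complexes, and for the CCAAT box (CCAAT), bound by NF-Y, on both strands and with overlaps between them allowed. The CHR letters were found in 24 of the 31 promoters (77.4%), against 20.2% of all genes in the table and 14.9% of the genes compared that have an entry. The CCAAT letters were found in 25 (80.6%), against 41.1% and 42.8%. At least 2 CCAAT boxes were found in 18 (58.1%), against 13.3% and 16.3%, and both elements in 21 (67.7%), against 8.97% and 7.17%. Among members below 0 in both setting comparisons 21 of 27 held the CHR letters, and among the other members 3 of 4. A match is a run of letters, not a shown binding site.

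Of these, 4 promoters are shown for members that were lower in transplanted cells and 2 for the kinetochore genes Cenpa and Nuf2, which were not. Each runs 5′ to 3′ from 250 bases before to 30 after the start, with CHR and CCAAT letters of either strand in capitals. They lie at chr4:118437314-118437593 (minus strand) for Cdc20, chr2:164769679-164769958 (plus strand) for Ube2c, chr7:135716350-135716629 (minus strand) for Mki67, chr4:124936888-124937167 (minus strand) for Cdca8, chr5:30666636-30666915 (plus strand) for Cenpa and chr1:169531435-169531714 (minus strand) for Nuf2.
Cdc20: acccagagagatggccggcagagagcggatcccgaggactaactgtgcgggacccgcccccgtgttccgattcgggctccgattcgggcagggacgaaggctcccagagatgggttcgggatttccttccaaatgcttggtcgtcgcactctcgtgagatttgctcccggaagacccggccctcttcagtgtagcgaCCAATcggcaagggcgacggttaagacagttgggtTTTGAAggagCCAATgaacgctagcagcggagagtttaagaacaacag
Ube2c: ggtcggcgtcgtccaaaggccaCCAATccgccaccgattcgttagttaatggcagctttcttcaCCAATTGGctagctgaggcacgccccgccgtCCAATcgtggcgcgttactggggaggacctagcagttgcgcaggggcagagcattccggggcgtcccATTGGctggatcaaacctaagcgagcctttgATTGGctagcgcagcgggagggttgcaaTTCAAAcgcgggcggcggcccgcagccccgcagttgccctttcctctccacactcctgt
Mki67: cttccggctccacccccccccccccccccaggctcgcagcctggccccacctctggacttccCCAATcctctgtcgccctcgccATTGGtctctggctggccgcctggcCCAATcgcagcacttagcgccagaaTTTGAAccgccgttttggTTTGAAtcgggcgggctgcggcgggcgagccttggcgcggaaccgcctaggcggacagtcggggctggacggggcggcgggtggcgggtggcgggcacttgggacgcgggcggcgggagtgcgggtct
Cdca8: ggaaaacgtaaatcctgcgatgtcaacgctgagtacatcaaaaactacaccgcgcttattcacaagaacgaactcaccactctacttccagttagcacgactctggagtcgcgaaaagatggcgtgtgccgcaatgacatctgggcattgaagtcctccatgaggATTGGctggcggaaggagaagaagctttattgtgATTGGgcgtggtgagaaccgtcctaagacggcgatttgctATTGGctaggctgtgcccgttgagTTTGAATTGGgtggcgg
Cenpa: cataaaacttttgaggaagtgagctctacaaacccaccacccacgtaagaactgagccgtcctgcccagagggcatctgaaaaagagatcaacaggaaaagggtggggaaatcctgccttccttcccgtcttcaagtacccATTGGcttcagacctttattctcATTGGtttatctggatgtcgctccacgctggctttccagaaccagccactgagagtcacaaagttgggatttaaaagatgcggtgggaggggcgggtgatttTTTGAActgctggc
Nuf2: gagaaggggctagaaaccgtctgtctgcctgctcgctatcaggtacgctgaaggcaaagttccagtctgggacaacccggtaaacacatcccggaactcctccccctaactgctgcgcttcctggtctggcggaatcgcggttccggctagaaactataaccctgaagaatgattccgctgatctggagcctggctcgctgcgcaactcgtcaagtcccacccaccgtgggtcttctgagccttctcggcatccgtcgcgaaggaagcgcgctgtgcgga
Cdc20 held 1 CHR and 2 CCAAT runs, Ube2c 1 and 6, Mki67 2 and 3, and Cdca8 1 and 4. Cenpa, whose level was slightly higher in transplanted cells, held 1 CHR and 2 CCAAT runs as well, while Nuf2 held neither in this window. The promoters shown are examples. Of all members below 0 in both setting comparisons 21 of 27 held the CHR letters. Cenpe and Nusap1 were among those without them, and Nusap1 held no CCAAT run either.

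The genotype comparison asks whether LSK cells with a single functional Sf3b1 copy express these genes differently. The members stood slightly higher in Sf3b1+/- cells. Above 0 were 26 of the 37 in native cells, where 49.7% of all genes were, and 27 of the 37 in transplanted cells, where 50.5% were. The median differences were 0.15 and 0.16, smaller than the technical SD of a difference for a single gene, beside medians of 0.00 and 0.01 over all genes. These comparisons rest on different arrays, and 22 of the 37 were above 0 in both (34.1% of all genes) and 6 below 0 in both (33.9%). At least 1.5-fold higher was 1 member in native cells, against 3.25% of all genes, and 2 in transplanted cells, against 7.80%, shares near or below the background; none was at least 1.5-fold lower, where 4.70% and 6.42% of all genes were. With spike-in scaling, which moved the median of all genes by 0.25 and 0.50, the members' medians were 0.40 and 0.65.

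Markers of other cell types also differed between genotypes, several of them by more than the members' medians. All 5 megakaryocyte markers were higher in Sf3b1+/- cells in both settings, with median differences of 0.68 and 1.19, and in limma's genotype test all 5 had an unadjusted p under 0.05 and 0 passed the adjusted threshold. The 4 B cell markers compared were all lower in native Sf3b1+/- cells, with a median of -1.28; in transplanted cells 1 of the B cell markers was well above background. Of the 6 T and NK cell markers compared 5 were lower in each setting, with medians of -0.38 and -0.44. The exception in transplanted cells was the NK cell receptor gene Klrb1c, higher in Sf3b1+/- by 1.31. The lowest value in each setting (-2.72 and -1.86) came from a Cd3 gene that was not well above background on the Sf3b1+/- array. The part of these cell types in the members' genotype differences was not tested.

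**Figure D4:**
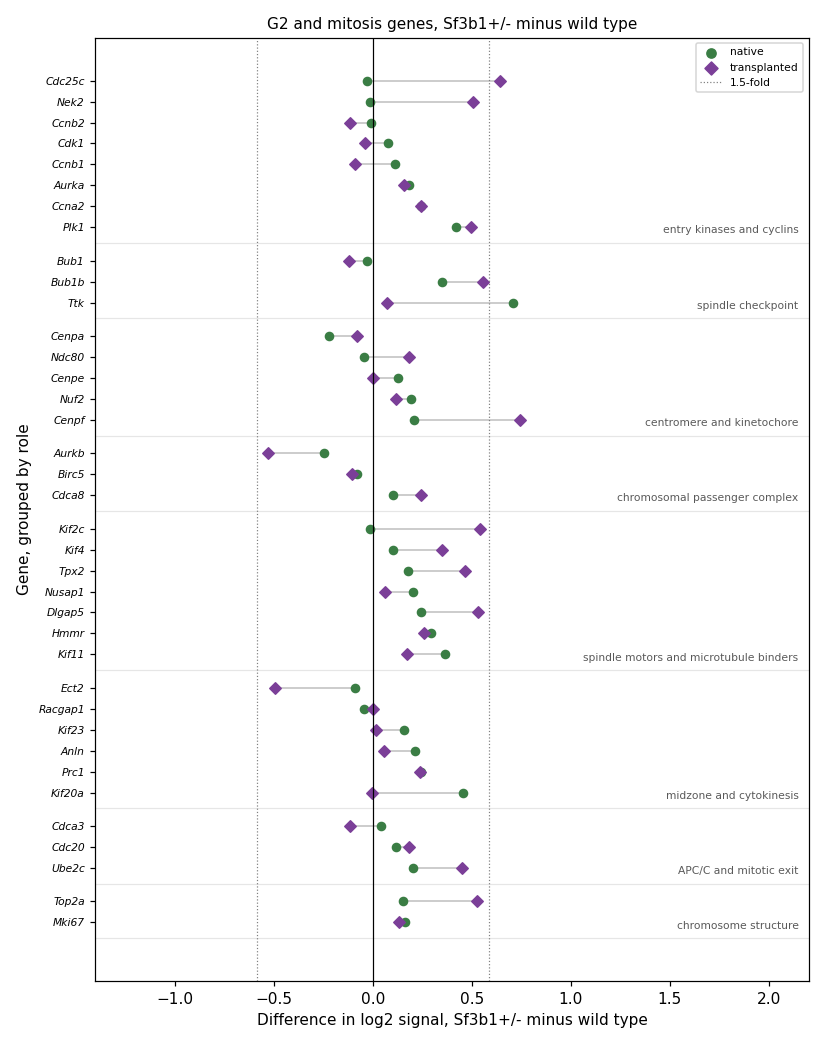
Difference in log2 signal between Sf3b1+/- and wild-type LSK cells for each of the 37 genes, grouped by role, in native (circles) and transplanted cells (diamonds), 1 array per group. Most points lie between 0 and the 1.5-fold line, with Ttk past it in native cells and Cdc25c and Cenpf past it in transplanted cells.

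In the limma fit no member passed the adjusted threshold for genotype, nor did any other gene (0% higher and 0% lower). The unadjusted p was under 0.05 for Plk1 and Bub1b, 2 of the 37 members, both higher in Sf3b1+/-. That is 5.41% of the members, a share not above the background, where 6.25% of all genes were higher and 7.37% lower. Plk1 was 1.34-fold higher in native and 1.41-fold higher in transplanted Sf3b1+/- cells (limma estimate 0.46, SE 0.12, adjusted p = 0.35). Bub1b was 1.27-fold and 1.47-fold higher (limma estimate 0.45, SE 0.13, adjusted p = 0.36). Of the 72 further mitosis genes 0 passed the adjusted threshold for genotype, and none was 1.5-fold apart in native cells. In transplanted cells 6 were at least 1.5-fold higher (8.33%, near the 7.80% of all genes) and 1 lower (1.39%, against 6.42% of all genes).

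By role, the spindle motors and microtubule binders were mostly above 0, with 6 of 7 in native and 7 of 7 in transplanted cells, at medians of 0.20 and 0.35. Tpx2 differed by 0.18 and 0.47, Hmmr by 0.30 and 0.26, and Kif11 by 0.36 and 0.17. Among the cyclins, Ccna2 was at 0.24 in both settings. The B-type cyclins differed little, with Ccnb1 at 0.11 and -0.09, and Ccnb2 at -0.01 and -0.11. Mki67 differed by 0.16 and 0.13, and Top2a by 0.15 and 0.53. Members below 0 in both settings were Ccnb2, Bub1, Cenpa, Aurkb, Birc5 and Ect2. Aurkb had the lowest value of any member in either setting, -0.25 and -0.53, with the unscaled signals given above.

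The 3 members past 1.5-fold had dim probes. Ttk was 1.63-fold higher in native Sf3b1+/- cells, from 43.1 to 82.7 units before scaling, and 1.05-fold higher in transplanted cells; after normexp correction the differences were 0.23 and -0.23. Cdc25c stood at -3.87, -3.90, -4.16 and -3.52, with its 1 high value on the Sf3b1+/- transplanted array, 1.56-fold above wild type, and at 0.19 after normexp correction. Cenpf was 1.67-fold higher in transplanted Sf3b1+/- cells than in transplanted wild-type cells, where it was not well above background. That ratio is not a lower bound, and after normexp correction the difference was -0.13.

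With its sign kept, the genotype difference (Sf3b1+/- minus wild type) was higher in transplanted than in native cells for 16 of the 37 members (50.5% of all genes). The median change was -0.03. The change was 0.67 for Cdc25c, 0.55 for Kif2c, 0.54 for Cenpf and 0.52 for Nek2, and -0.63 for Ttk, -0.46 for Kif20a and -0.41 for Ect2. Ect2 was below 0 in both settings, and its difference grew in size, from -0.09 in native to -0.49 in transplanted cells. With 1 array per group these contrasts between the settings were not tested.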

How the data were processed

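RNA of LSK cells was hybridised to 1 Agilent array (design 028005) per group, 4 in all; the members and lists were chosen with earlier results of these data known. Per the file headers, the deposited intensity values came from Feature Extraction 10.7.1.1, as its processed (background-corrected) signal and as raw spot and background medians; probe positions are on mm9. The deposited value set of the whole series holds ratio values that match the processed signal over a fixed divisor for each array (column medians 0.0810, 0.0745, 0.0816 and 0.0747; the sources used here do not say how it was chosen); they are linear and not centred, and a larger value means more signal. The scanner software's 0 or 1 flags of detection and outliers were used as deposited.

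Control and outlier spots were removed, spots of a probe averaged on the log2 scale, and 27509 of 55681 probes named through RefSeq transcripts of GRCm38.p6 (used for names and promoters alone). Scaling used the 75th percentile over probes well above background on all 4 arrays, since 49.5% of spots were detected on average. Genes were tested with limma 3.58.1 (lmFit, eBayes, two-sided, Benjamini-Hochberg; 1 residual and 3.04 prior degrees of freedom) in R 4.3.3 with data.table (version 1.17.8), after the fit was tested on simulated data. In this fit a gene's residual is how far its setting difference departs between the genotypes, and not a spread between replicate arrays. The p-values reflect that departure, moderated over all genes, and it may be technical. Values were given on all arrays for members at least 1.5-fold apart in any comparison and the 3 furthest apart in each; other listed genes were named if 1.5-fold apart the same way in both genotype or both setting comparisons, at most 6 per list by the smaller difference. Alternatives were other scalings, background correction, probe rule and filters; normexp (offset 50) used the median spot signal in place of the mean.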

Additional observations from a re-analysis of the deposited data

How the results depend on the processing

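No paired analysis was possible because each group has 1 array, and leaving out an array leaves no residual degrees of freedom. The members' median differences moved by less than the technical SD of 0.20 under every alternative except spike-in scaling. With spike-in scaling they were 0.40 in native and 0.65 in transplanted cells for genotype, and -0.011 in wild-type and 0.29 in Sf3b1+/- cells for setting. On that scale the Sf3b1+/- setting differences of Ccna2, Ccnb1, Ccnb2, Cenpf, Cdca8, Kif11, Tpx2 and Cdc20 turned to 0.025, 0.11, 0.11, 0.16, 0.10, 0.042, 0.16 and 0.11. After normexp the transplanted genotype difference of Cenpf turned to -0.13. Members past the adjusted threshold for setting numbered 0, but 20 after normexp, 3 over genes detected on all 4 arrays and 7 with spike-in scaling; for genotype they numbered 0 under every alternative run. Of 33 differences past 1.5-fold, 28 kept side and size after normexp, 31 with the mean over detected probes, 4 with spike-in scaling and 33 under each of the other scalings, the series table and no filter; all 30 that could be compared did so among genes detected on all 4 arrays. Dim probes (Ttk, Cenpf, Cdc25c) limit what the signal over background allows.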

Other observations

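Of the 37 members 11 were read by more than 1 probe, and some of the probes not used above differed from the brightest. For Ccnb1 the other probes gave setting differences of 0.11 and -0.08 in wild type and 0.08 and 0.24 in Sf3b1+/-, while the brightest gave -0.44 and -0.64. For Birc5 they gave 0.04 and -0.10 in wild type and 0.08 and -0.15 in Sf3b1+/-, against -0.20 and -0.23. For Cdk1 the dimmer probes gave 0.64 and -0.35 in wild type and 0.02 and -0.62 in Sf3b1+/-, on either side of -0.02 and -0.14. The second probes of Tpx2 (-1.03 and -0.96), Kif2c (-0.76 and -0.44), Ube2c (-0.59 and -0.40) and Racgap1 (-0.19 and -0.16) pointed the way of the brightest in both genotypes.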
